A study of Mus musculus with 8 samples.

Results

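The 10 genes described here encode neuronal RNA-binding proteins and splicing regulators: Elavl2, Elavl3 and Elavl4, Rbfox1, Rbfox2 and Rbfox3, Nova1 and Nova2, and Ptbp1 and Ptbp2. They were picked by symbol, with earlier results of these data known, from the 12843 genes of the deposited table, which held all 10. RNA was sequenced from the lateral ganglionic eminence (LGE, the ventral forebrain swelling that forms the striatum and olfactory bulb interneurons) of mouse embryos at E12.5 (embryonic day). Of the 8 libraries, 4 were labelled Gsx2EGFP/Gsx2RA, a germline genotype with no unmodified copy of Gsx2, and 4 were labelled wild type. Gsx2 encodes a homeodomain protein that patterns LGE progenitors. The embryos came from crosses between Gsx2RA/+ and Gsx2EGFP/+ carriers, and tissue was compared as dissected, without sorting cells. Whether any library pools embryos is not stated by the labels, and the p-values therefore reflect the spread among these 8 libraries alone.

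These proteins choose which exons enter an mRNA and how long or where an mRNA lasts. The neuronal Elavl proteins (HuB, HuC and HuD) bind AU-rich and U-rich RNA, stabilise transcripts and steer splicing in neurons. Rbfox proteins bind UGCAUG elements beside exons, and Rbfox3 is the antigen NeuN, a standard marker of maturing neurons. Nova proteins bind clusters of YCAY (Y is C or U) and shape the splicing of synaptic transcripts. Ptbp1 is the polypyrimidine tract-binding protein of progenitors and non-neural cells, where it represses neuronal exons, one of them in Ptbp2, the form that takes its place as neurons are born.

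RPKM, the read number scaled to gene length and sequencing depth, was used for levels, which allows genes of different length to be set side by side. Each library held 16031413 to 18019168 reads in listed genes. Rbfox3 had the fewest reads of the members in wild-type libraries, 255 to 494 each, and had 916 to 1211 per null-labelled library. Rbfox1 had 721 to 965 per null-labelled library. All members other than Rbfox3 had at least 721 in every library. RNA of Gsx2 itself averaged 55.2 ± 7.11 RPKM in null-labelled and 23.5 ± 2.16 RPKM in wild-type libraries (SD, n = 4 each). The sources used here do not describe what either allele leaves of the gene. Its RNA therefore cannot check the genotype, and "null-labelled" follows the labels. Of 7 tested LGE and striatal genes 5 fell, 1 rose (Gsx2) and 1 did not pass. Summed RPKM of the 7, Gsx2 included, ran from 291 to 333 in null-labelled and from 382 to 415 in wild-type libraries. Six3, Isl1 and Ebf1, among those that fell, averaged 10.7 to 15.4 RPKM in null-labelled and 26.5 to 37.9 RPKM in wild-type libraries.

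Summed levels of the LGE and striatal, pallial and subpallial markers did not overlap between genotypes, while those of the other cell type markers did. Summed RPKM of 10 pallial glutamatergic genes ran from 547 to 613 in null-labelled and from 46.8 to 191 in wild-type libraries, and all 10 rose. Summed RPKM of 8 subpallial GABAergic genes ran from 47.0 to 80.1 in null-labelled and from 497 to 598 in wild-type libraries, and all 8 fell. Of 12 tested markers shared by all neurons, 7 rose and 2 fell (Nefl and Nefm), with a median log2 fold change of 0.35 and a sum of 1313 to 1591 RPKM in null-labelled and 1157 to 1347 RPKM in wild-type libraries. Of 11 radial glia markers 3 rose and 5 fell, with sums of 1520 to 1890 and 1534 to 1630 RPKM. Of 6 Cajal-Retzius markers 4 rose and 0 fell, with sums of 30.4 to 72.4 RPKM in null-labelled and 6.39 to 32.3 RPKM in wild-type libraries. Of the markers of non-neural cells, 3 of 6 vascular genes fell (summed RPKM of 22.04 to 29.6 in null-labelled and 29.5 to 34.5 in wild-type libraries), and none of the tested erythroid, microglial or mesenchymal genes passed, at an unadjusted p under 0.05 or by voom either. By the test described below, the share called was 85.7% for LGE and striatal genes (Gsx2 included), 75% for neuronal and 72.7% for radial glia markers. It was 66.7% for Cajal-Retzius markers and 50% for vascular genes, against 28.5% of all tested genes. Null-labelled library 6 had the highest mesenchymal sum, 9.96 RPKM. Wild-type library 7 stood apart, with 46.8 RPKM for the pallial genes, where wild-type libraries 1, 2 and 8 had 163 to 191 RPKM. It also had the highest erythroid sum, 2260 RPKM against 1276 to 1496 RPKM in wild-type libraries 1, 2 and 8, and the lowest Cajal-Retzius sum, 6.39 RPKM. Results are given without library 7 where that changes a call. In bulk tissue, fewer cells of a type and less RNA per cell cannot be told apart, and the part of these differences in the results below was not tested.

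Most of the 10 regulators differed between genotypes, and they did not all move the same way. Elavl2, Elavl4, Rbfox2, Rbfox3 and Nova2 rose in the null-labelled libraries, Rbfox1, Nova1 and Ptbp1 fell, and Elavl3 and Ptbp2 did not pass the test. The test was limma on log2(RPKM + 1) over 11395 genes with a threshold of 0.05 on the adjusted p. Of all genes tested 28.5% passed, 13.8% as higher and 14.6% as lower. The members were chosen with earlier results of these data known, so setting them beside these shares is a description, not a test. The median log2 fold change was 0.21 over the 10 members and -0.01 over all tested genes. The genotypes did not overlap in RPKM for 7 of the 10 members, as for 30.9% of all tested genes. The authors' deposited table, made with edgeR, gives an FDR under 0.05 for 5 members as higher and 3 as lower, as against 27.6% of its genes in either direction.

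**Figure D1:**
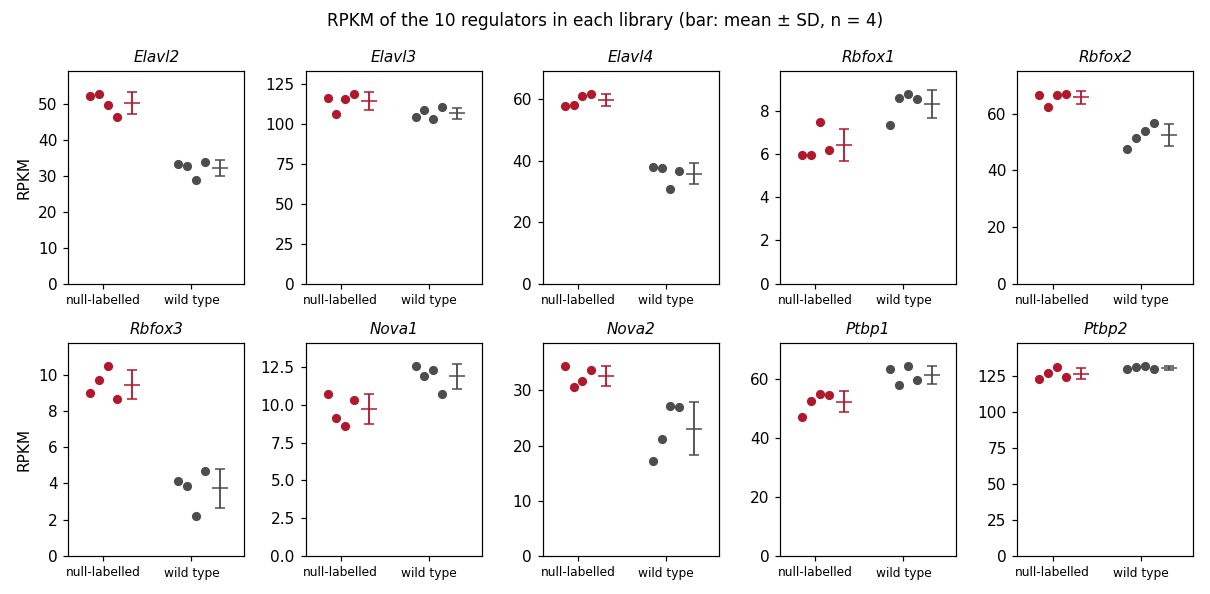
RPKM of each of the 10 regulators (vertical axes, each from 0), with 1 point per library, null-labelled libraries in red on the left and wild-type libraries in grey on the right; bars are mean ± SD of 4 libraries. Elavl2, Elavl4, Rbfox2, Rbfox3 and Nova2 are higher in every null-labelled library than in any wild-type library. Nova1 and Ptbp1 are lower in every null-labelled library, while Elavl3, Rbfox1 and Ptbp2 overlap.

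The Elavl family lies on chromosomes 4 and 9 of GRCm38. Elavl2 (ENSMUSG00000008489.18) spans 91250763 to 91400785 and Elavl4 (ENSMUSG00000028546.17) 110203722 to 110351909 on the minus strand of chromosome 4, and Elavl3 (ENSMUSG00000003410.8) spans 22015005 to 22052023 on the minus strand of chromosome 9. Elavl4, which encodes HuD, had 57.7, 58.3, 61.2 and 61.9 RPKM in null-labelled libraries 5, 6, 11 and 12, and 38.1, 37.6, 30.9 and 36.7 RPKM in wild-type libraries 1, 2, 7 and 8. All null-labelled values lay above all wild-type values, and library 7 was the lowest of the wild type. The means were 59.8 ± 2.07 and 35.8 ± 3.35 RPKM (SD, n = 4 each). The null-labelled mean was 67.0% higher, a log2 fold change of 0.73 ± 0.07 (SE, limma adjusted p = 6.59e-05). Without library 7 the log2 fold change was 0.66 (adjusted p = 2.59e-05).

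Elavl2, which encodes HuB, the Hu protein also made in gonads, had 52.2, 52.8, 49.7 and 46.2 RPKM in null-labelled libraries 5, 6, 11 and 12, and 33.3, 32.5, 28.7 and 33.8 RPKM in wild-type libraries 1, 2, 7 and 8. The groups again did not overlap, and library 7 was again the lowest. Its mean was 50.2 ± 2.99 RPKM in null-labelled and 32.1 ± 2.32 RPKM in wild-type libraries (SD, n = 4 each), with a log2 fold change of 0.63 ± 0.06 (SE, limma adjusted p = 0.000107).

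Elavl3, which encodes HuC, was the most abundant of this family and moved least. It had 116, 106, 116 and 119 RPKM in null-labelled libraries 5, 6, 11 and 12, and 104, 108, 103 and 110.3 RPKM in wild-type libraries 1, 2, 7 and 8. Null-labelled library 6 lay among the wild-type values, so the groups overlapped. The log2 fold change of 0.10 ± 0.05 (SE) did not pass (limma adjusted p = 0.187). GENCODE M21 has Gm49318 on the same strand, sharing 256 exon bases with Elavl3, and reads of those bases cannot be told apart. Elavl3 took 50.9% ± 1.51 of the summed RPKM of the family in null-labelled and 61.1% ± 1.69 in wild-type libraries (SD, n = 4 each).

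A promoter window of Elavl4, a gene that rose, is shown because no other member had a window with both motifs searched for. RefSeq (GRCm38.p6) gives 18 start-site windows for 9 of the 10 members, and the 250 bases before each start were searched on both strands for CAGATG, an E-box bound by neurogenin and NeuroD proteins that reads CATCTG from the other strand, and for TAATTA, a core bound by homeodomain proteins. CAGATG occurred in 4 windows (3 of the 4 of Elavl4, and that of Ptbp1), and in 14.4% of all 32851 windows. TAATTA occurred in 2 overlapping windows of Elavl4, and in 4.84% of all windows. These 2 overlapping windows also hold the same single E-box match, so the 3 Elavl4 windows with the E-box are not 3 separate sites. By gene, 2 of the 9 members with a window had the E-box, while the 14.4% counts windows, not genes. A match is a description of letters, not a binding site. The first of the 2 overlapping Elavl4 windows, at chr4:110287528-110287777 on the minus strand, lies in no annotated exon of GENCODE M21. The window of Rbfox3, the member with the largest rise, at chr11:118761042-118761291 on the minus strand, has neither motif and is printed beside it. Both printed windows lie inside their genes, not at the annotated 5′ end. The Elavl4 window at that end, chr4:110351912-110352161, has neither motif. Both printed sequences run 5′ to 3′ on the gene's strand, and capitals mark the motifs.
Elavl4: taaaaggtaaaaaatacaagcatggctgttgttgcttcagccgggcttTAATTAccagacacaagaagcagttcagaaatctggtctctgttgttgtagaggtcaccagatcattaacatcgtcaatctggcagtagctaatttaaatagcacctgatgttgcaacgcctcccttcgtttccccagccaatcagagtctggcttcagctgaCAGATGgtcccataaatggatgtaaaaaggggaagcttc
Rbfox3: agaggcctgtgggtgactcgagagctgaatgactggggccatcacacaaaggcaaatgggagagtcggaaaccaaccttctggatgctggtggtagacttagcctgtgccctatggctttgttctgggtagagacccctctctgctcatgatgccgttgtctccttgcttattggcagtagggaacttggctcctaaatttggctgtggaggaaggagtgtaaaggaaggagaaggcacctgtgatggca

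Within the Rbfox family, Rbfox3 and Rbfox2 rose and Rbfox1 fell. Rbfox3 (ENSMUSG00000025576.17), which encodes NeuN, spans 118489762 to 118911597 on the minus strand of chromosome 11. It had 8.98, 9.70, 10.5 and 8.68 RPKM in null-labelled libraries 5, 6, 11 and 12, and 4.11, 3.88, 2.22 and 4.68 RPKM in wild-type libraries 1, 2, 7 and 8. The lowest null-labelled value was above the highest wild-type value, and library 7 was below the other wild-type libraries (3.88 to 4.68). The mean was 9.47 ± 0.812 RPKM in null-labelled and 3.72 ± 1.05 RPKM in wild-type libraries (SD, n = 4 each). Their ratio was 2.54 and the log2 fold change 1.18 ± 0.15 (SE, limma adjusted p = 0.000424). Rbfox3 had the largest log2 fold change among the 10. Without library 7 it was 1.00 ± 0.08 (adjusted p = 3.57e-05), and a pseudocount of 5 lowered it to 0.74, since a pseudocount weighs more on a gene of few RPKM.

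Rbfox2 (ENSMUSG00000033565.18, chromosome 15 from 77078990 to 77307004, minus strand), the family member also used widely outside the nervous system, was the most abundant of the family. It had 66.6, 62.5, 66.7 and 67.1 RPKM in null-labelled libraries 5, 6, 11 and 12, and 47.5, 51.3, 53.9 and 56.6 RPKM in wild-type libraries 1, 2, 7 and 8. The groups did not overlap. The log2 fold change was 0.33 ± 0.06 (SE, limma adjusted p = 0.00249).

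Rbfox1 (ENSMUSG00000008658.16, chromosome 16 from 5885355 to 7411526, plus strand), the family member of neurons, heart and muscle, went the other way. It had 5.98, 5.98, 7.51 and 6.20 RPKM in null-labelled libraries 5, 6, 11 and 12, and 7.38, 8.61, 8.82 and 8.58 RPKM in wild-type libraries 1, 2, 7 and 8. Null-labelled library 11 and wild-type library 1 overlapped, and the other libraries did not. The mean was 6.42 ± 0.736 RPKM in null-labelled and 8.35 ± 0.654 RPKM in wild-type libraries (SD, n = 4 each). The log2 fold change was -0.34 ± 0.08 (SE, limma adjusted p = 0.0101). In libraries 11 and 12 against 7 and 8 alone it was -0.31 (adjusted p = 0.0560).

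The Nova genes moved in opposite directions. Nova2 (ENSMUSG00000030411.16, chromosome 7 from 18925888 to 18965319, plus strand), the Nova protein prominent in the developing cortex, had 34.4, 30.6, 31.8 and 33.7 RPKM in null-labelled libraries 5, 6, 11 and 12, and 17.1, 21.1, 27.2 and 26.9 RPKM in wild-type libraries 1, 2, 7 and 8. The null-labelled values lay close together above a wild type that split, with libraries 1 and 2 below 7 and 8. The means were 32.6 ± 1.76 and 23.1 ± 4.87 RPKM (SD, n = 4 each). This gave a log2 difference of 0.50 ± 0.13 (SE, limma adjusted p = 0.0145). It was 0.74 ± 0.11 in libraries 5 and 6 against 1 and 2 (adjusted p = 0.0111) and 0.26 ± 0.05 in libraries 11 and 12 against 7 and 8 (adjusted p = 0.0143). GENCODE M21 places Gm26821 on the opposite strand, sharing 2652 exon bases with Nova2. The libraries were stranded, but the sources used here do not say whether the counting used strand. If it did not, reads of the pair cannot be told apart.

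Nova1 (ENSMUSG00000021047.7, chromosome 12 from 46694517 to 46818929, minus strand), the Nova protein best known from hindbrain and spinal cord, had 10.72, 9.15, 8.60 and 10.3 RPKM in null-labelled libraries 5, 6, 11 and 12, and 12.6, 11.9, 12.3 and 10.75 RPKM in wild-type libraries 1, 2, 7 and 8. The groups were separated only by the gap between 10.72 in library 5 and 10.75 in library 8. The log2 fold change was -0.27 ± 0.07 (SE, limma adjusted p = 0.0211). The call was lost on leaving out null-labelled library 6 (adjusted p = 0.0560), null-labelled library 11 (0.0507), wild-type library 1 (0.0543) or wild-type library 7 (0.0567). It was also lost in libraries 5 and 6 against 1 and 2 alone (-0.28, adjusted p = 0.0773) and in libraries 11 and 12 against 7 and 8 alone (-0.26, adjusted p = 0.114). Nova1 shares 310 exon bases with Gm33869 on the same strand, which strand could not resolve.

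Ptbp1 fell by a small amount, and Ptbp2 did not pass the test. Ptbp1 (ENSMUSG00000006498.16, chromosome 10 from 79854427 to 79864771, plus strand) had 47.1, 52.7, 55.0 and 54.7 RPKM in null-labelled libraries 5, 6, 11 and 12, and 63.5, 57.9, 64.6 and 59.7 RPKM in wild-type libraries 1, 2, 7 and 8. Each null-labelled value was below every wild-type value. The mean was 52.4 ± 3.66 RPKM in null-labelled and 61.4 ± 3.13 RPKM in wild-type libraries (SD, n = 4 each). On the log2 scale the difference was -0.23 ± 0.06 (SE, limma adjusted p = 0.0188). The call was lost without wild-type library 7 (-0.20, adjusted p = 0.0577) and in libraries 5 and 6 against 1 and 2 alone (-0.28, adjusted p = 0.0642). Ptbp1 shares 251 exon bases with Plppr3 on the opposite strand (49.6 RPKM in null-labelled and 46.5 RPKM in wild-type libraries), 295 with E130317F20Rik (2.77 RPKM in null-labelled and 2.84 RPKM in wild-type libraries) and 437 with Gm17134, both also on the opposite strand. Those reads cannot be told apart either if the counting ignored strand.

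Ptbp2 (ENSMUSG00000028134.11, chromosome 3 from 119718742 to 119784466, minus strand) was the most abundant of the 10 in both genotypes. It had 123, 127, 131 and 125 RPKM in null-labelled libraries 5, 6, 11 and 12, and 129.6, 131, 132 and 129.6 RPKM in wild-type libraries 1, 2, 7 and 8. The groups overlapped through null-labelled library 11. The log2 fold change was -0.05 ± 0.04 (SE) and did not pass (limma adjusted p = 0.474), and no change in either direction was detectable at this spread.

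**Figure D2:**
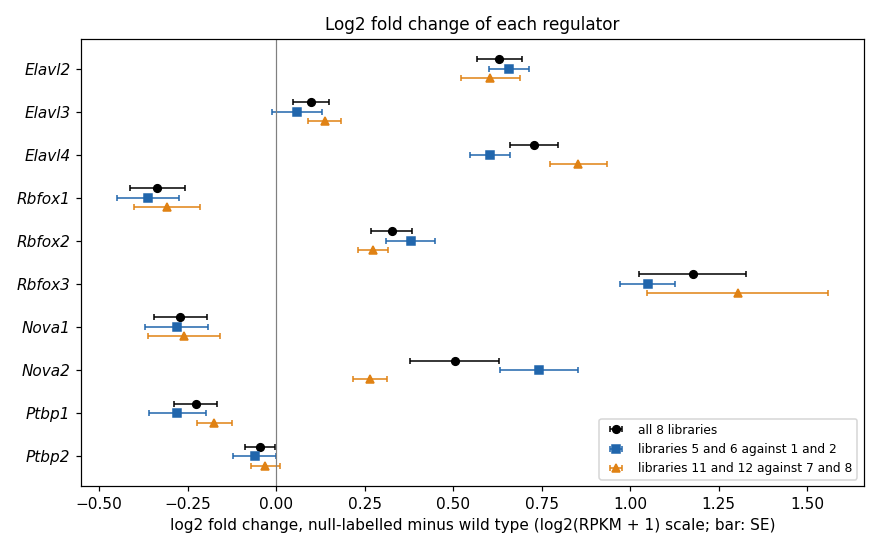
Log2 fold change (horizontal axis, null-labelled minus wild type on the log2(RPKM + 1) scale) of each regulator with its SE, for all 8 libraries and for the lower-numbered and higher-numbered libraries alone. Directions are the same in both subsets, and Nova2 has the widest gap between them, 0.74 against 0.26.

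Transcripts and host genes known from the Ptbp circuit were mixed. Ptbp1 lowers Dlg4 RNA (PSD-95, the postsynaptic scaffold) by repressing an exon, and miR-124, a microRNA of neurons, represses Ptbp1. Of 5 tested genes 2 rose and 1 fell, a share called of 60%, against 28.5% of all tested genes. Dlg4 averaged 44.7 ± 2.45 RPKM in null-labelled and 35.1 ± 2.38 RPKM in wild-type libraries (SD, n = 4 each; log2 fold change 0.34, limma adjusted p = 0.00245). The miR-124 host gene Mir124a-1hg averaged 38.9 ± 5.22 RPKM in null-labelled and 64.9 ± 3.38 RPKM in wild-type libraries (SD, n = 4 each; log2 fold change -0.73, limma adjusted p = 0.000223). A second miR-124 host gene, Mir124-2hg, went up, with 19.4 ± 0.475 RPKM in null-labelled and 15.01 ± 1.68 RPKM in wild-type libraries (SD, n = 4 each; log2 fold change 0.36, limma adjusted p = 0.00478). Gabbr1 (adjusted p = 0.312) and Mir9-3hg (adjusted p = 0.754) did not pass. The mature microRNAs and the use of single exons were not analysed here.

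The balance between paralogues was then compared directly, as the difference in mean log2 ratio of RPKM + 1 between genotypes. Of 8 pairs within families, 7 passed an exact two-sided permutation test with adjusted p = 0.0327 each. Their raw p was 0.0286, the smallest that 70 arrangements of 4 against 4 libraries allow. The pairs share genes and are not independent, and the adjusted p rests on several of them reaching that smallest value. No share over other gene pairs was computed. A ratio can separate where a single gene of the pair moves. The 30.9% of all tested single genes that did not overlap between genotypes is therefore no measure for pairs. Rbfox3 stood at 1.501, 1.62, 1.40 and 1.40 times Rbfox1 in null-labelled libraries 5, 6, 11 and 12, and at 0.557, 0.450, 0.252 and 0.545 times in wild-type libraries 1, 2, 7 and 8. Rbfox3 was thus above Rbfox1 in every null-labelled library and below it in every wild-type library. The log2 difference for this pair was 1.51, the largest of the 8, and 0.96 with a pseudocount of 5.

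Nova2 averaged 3.38 ± 0.221 times Nova1 in null-labelled and 1.96 ± 0.503 times in wild-type libraries (SD, n = 4 each), a log2 difference of 0.77. Elavl4 averaged 0.524 ± 0.0217 times Elavl3 in null-labelled and 0.336 ± 0.0281 times in wild-type libraries (log2 difference 0.63), and Elavl3 stood at 2.28 ± 0.236 and 3.33 ± 0.196 times Elavl2 (log2 difference -0.53). The pair that did not pass was Elavl4 to Elavl2, both of which rose, with a log2 difference of 0.10 (exact permutation p = 0.286). Ptbp2 averaged 2.42 ± 0.137 times Ptbp1 in null-labelled and 2.13 ± 0.107 times in wild-type libraries (SD, n = 4 each), the smallest log2 difference that passed, 0.18. Relative to Rbfox2, Rbfox3 was higher (log2 difference 0.85, and 0.43 with a pseudocount of 5) and Rbfox1 lower (-0.66) in the null-labelled libraries.

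**Figure D3:**
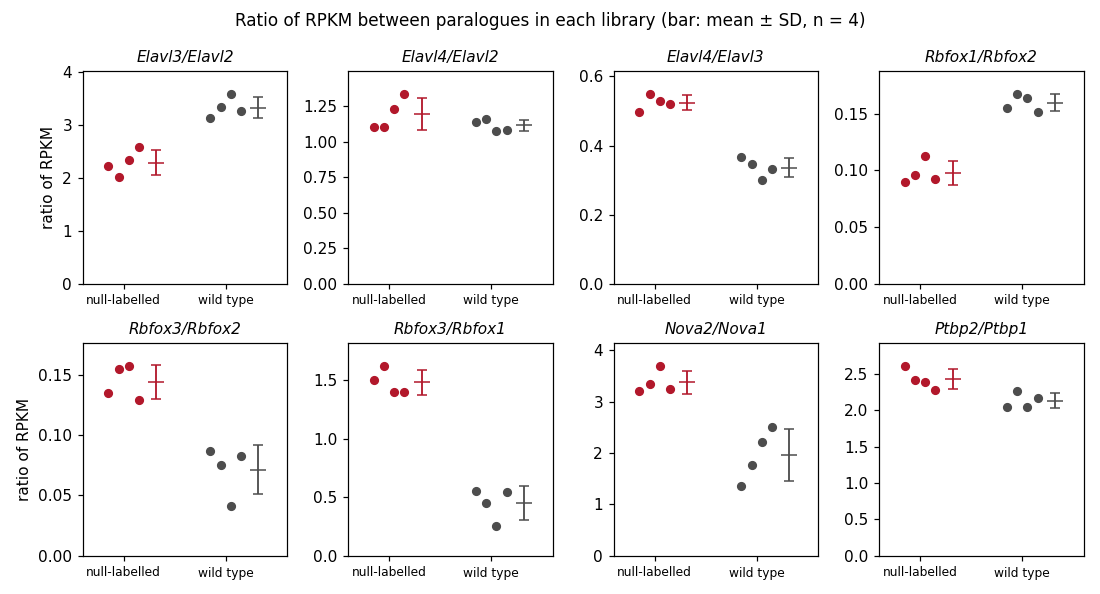
Ratio of RPKM between paralogues (vertical axes, each from 0) in each library, null-labelled in red on the left and wild type in grey on the right; bars are mean ± SD of 4 libraries. The groups overlap for Elavl4/Elavl2, and Rbfox3/Rbfox1 is above 1 in all 4 null-labelled libraries and below 1 in all 4 wild-type libraries.

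Ranked by mean RPKM, the null-labelled order was Ptbp2 (126), Elavl3 (114), Rbfox2 (65.7), Elavl4 (59.8), Ptbp1 (52.4), Elavl2 (50.2), Nova2 (32.6), Nova1 (9.70), Rbfox3 (9.47) and Rbfox1 (6.42). The wild-type order was Ptbp2 (131), Elavl3 (107), Ptbp1 (61.4), Rbfox2 (52.3), Elavl4 (35.8), Elavl2 (32.1), Nova2 (23.1), Nova1 (11.9), Rbfox1 (8.35) and Rbfox3 (3.72). Ptbp1 stood below Rbfox2 and Elavl4 in the null-labelled libraries and above both in the wild-type libraries, and Rbfox3 moved past Rbfox1. Library ranges overlapped between the neighbours Ptbp1 and Elavl2 and between Nova1 and Rbfox3 in the null-labelled order, and between Elavl4 and Elavl2 in the wild-type order. The other neighbours had separate ranges.

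Other regulators of splicing, from a list that does not hold the 10 members, also moved in both directions. This list and those below were likewise chosen with earlier results of these data known. Of 20 tested 7 rose and 3 fell, with a median log2 fold change of 0.16 against -0.01 for all tested genes. The share called was 50%, against 28.5% of all tested genes. Srrm4 (nSR100), the neuronal activator of microexons, averaged 27.9 ± 1.46 RPKM in null-labelled and 14.0 ± 1.54 RPKM in wild-type libraries (SD, n = 4 each; log2 fold change 0.95 ± 0.07, limma adjusted p = 1.97e-05). Celf2 (0.38 ± 0.05) and Celf4 (0.47 ± 0.07), CUG-binding splicing factors of neurons, rose as well. Qk (quaking), a regulator of glial and progenitor RNAs, fell (-0.25 ± 0.05, limma adjusted p = 0.00334). Without null-labelled library 5, wild-type library 7 or wild-type library 8, 1 gene of this list passed as lower.

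Among general splicing factors, more SR and SR-like genes fell than rose, by small amounts. The share of hnRNP genes called was near that of all tested genes. Of 13 tested SR and SR-like proteins, which bind exonic enhancers, 8 fell and 1 rose, with a median of -0.22. The share called was 69.2%, against 28.5% of all tested genes. Srsf10 (-0.33 ± 0.06), Srsf1 (-0.26 ± 0.05), Srsf6 (-0.27 ± 0.06) and Tra2b (-0.28 ± 0.06) had the smallest adjusted p (0.00205 to 0.00650). Srsf12, named for being the single rise and chosen after its values were seen, had 2.54 ± 0.327 RPKM in null-labelled and 1.52 ± 0.336 RPKM in wild-type libraries (SD, n = 4 each; limma adjusted p = 0.00745). Of 24 hnRNP and related genes 6 fell and 0 rose by limma, with 12 lower and 0 higher at an unadjusted p under 0.05 and 7 lower and 0 higher by voom. The 25.0% called by limma was near the 28.5% of all tested genes. At an unadjusted p under 0.05, 2363 of all 11395 tested genes were lower and 2110 higher. By voom 29.1% of all tested genes were called, 1687 as lower and 1629 as higher. The falls were led by Pcbp3 (-0.33 ± 0.06), Hnrnpa3 (-0.19 ± 0.04), Hnrnpdl (-0.22 ± 0.06) and Hnrnpk (-0.18 ± 0.05), and without null-labelled library 5 or 6 only 3 passed. Under median-of-ratios scaling or quantile normalization 1 hnRNP gene passed as higher.

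Among 16 tested proteins of mRNA stability and translation, 3 rose and 2 fell, with a median of -0.04. The share called, 31.2%, was near the 28.5% of all tested genes. All 3 rises were cytoplasmic polyadenylation element-binding proteins, which control translation through the poly(A) tail. They were Cpeb2 (0.71 ± 0.07, limma adjusted p = 6.63e-05), with 5.25 ± 0.120 RPKM in null-labelled and 2.82 ± 0.295 RPKM in wild-type libraries (SD, n = 4 each), Cpeb4 (0.28 ± 0.06) and Cpeb3 (0.31 ± 0.08). The falls were Igf2bp3, an mRNA-binding protein of fetal tissue (-0.25 ± 0.05, limma adjusted p = 0.00342), and Fxr1, a relative of the fragile X protein, named after its values were seen (-0.18 ± 0.05, limma adjusted p = 0.0199). Without wild-type library 7, 1 passed as lower.

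**Figure D4:**
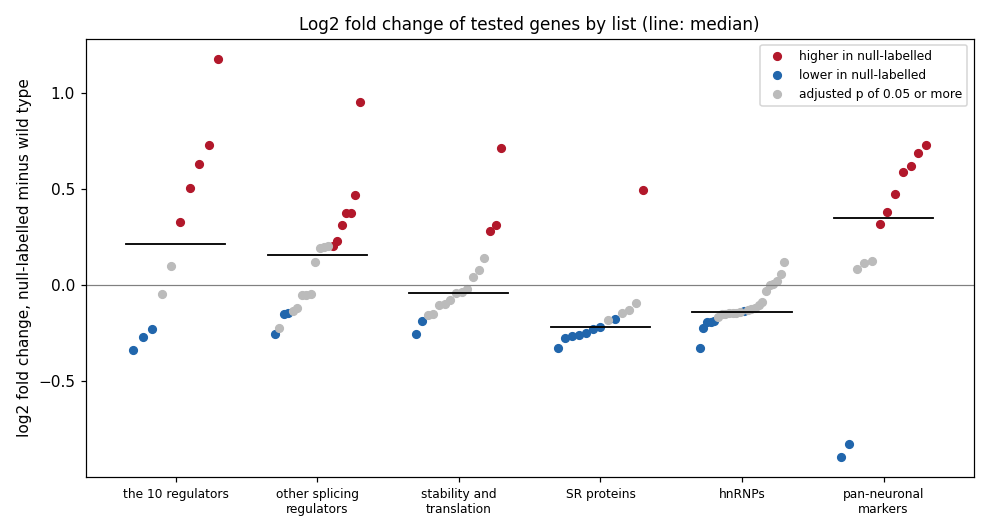
Log2 fold change (vertical axis, null-labelled minus wild type) of every tested gene in 6 lists, with the median of each list as a line; red and blue points passed an adjusted p of 0.05. The medians of the 10 regulators (0.21) and of the pan-neuronal markers (0.35) lie above 0, and those of the SR proteins (-0.22) and hnRNPs (-0.14) below it.

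Genes whose profile over the 8 libraries was most like a member's were sought among 10735 genes by Pearson correlation of log2(RPKM + 1), as a description that includes the genotype difference they share. Rbfox3 was most like Neurod4 (r = 0.997) and Lypd6 (0.995). Elavl4 was most like Prmt8 (0.998) and Barhl2 (0.996), and Elavl2 like Ttc28 (0.997) and Tgfa (0.996). Nova2 was most like Sox11 (0.988) and Rorb (0.980), Rbfox2 like Bcr (0.992) and Atg2a (0.987), and Elavl3 like Clip2 (0.985) and Borcs6 (0.975). On the falling side, Ptbp1 was most like Umps (0.998), Rbfox1 like Ankrd26 (0.984) and Cdk14 (0.969), and Nova1 like Otx2 (0.979) and Ttc39c (0.972). Ptbp2 was most like Mob1a (0.962) and Efcab14 (0.961).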

How the data were processed

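The authors deposited 1 table with the RPKM of 8 libraries per the file headers, and with their log2 fold change, average log2 CPM, p-value and FDR. STAR, featureCounts, edgeR and build mm10 are named, per the submitters' processing notes. The version, annotation and strand setting used are not stated there, although the libraries were stranded (dUTP) per the labels' protocols. A positive log2 fold change of the authors means higher in null-labelled libraries (100% of 1782 genes with an absolute value above 0.5). Column names give the genotype and a number found in no label; 0 sample columns were left out.

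From the deposited RPKM, limma 3.58.1 (R 4.3.3) fitted log2(RPKM + 1) (genotype as the term, intensity trend, two-sided, Benjamini-Hochberg over the 11395 genes that averaged 1 RPKM or more in null-labelled or wild-type libraries; 1448 were not tested). The fit was also run on simulated counts, with the same spread setting for every gene and no outlying library. That run therefore cannot show the error rate in these data. Whole reads were recovered from RPKM steps for 100% of genes (tolerance 1e-06 of a read) and set the depth and the voom alternative. Paralogue ratios were tested with exact permutation in scipy 1.17.1. Positions are from GENCODE M21 (GRCm38) and promoters from RefSeq. Alternatives were other pseudocounts, filters, scalings, voom, a robust fit, library subsets and leaving out each library. The text names all members, up to 4 called genes per list by smallest adjusted p, and the 2 genes most like each member, except for items that are not reported here. Members and lists were chosen with earlier results of these data known. The circuit list was described in full.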

Additional observations from a re-analysis of the deposited data

Results flagged for a closer look

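In 36 groups of 4 libraries (10 members and 8 ratios in 2 genotypes), a library far from the other 3 was looked for with Dixon's test, which flags about 1 in 20 groups by chance, and 2 were found. Rbfox1 in null-labelled library 11 was 7.51 RPKM against 5.98 to 6.20 in the other null-labelled libraries, a gap of 0.856 of the range. Rbfox2 in null-labelled library 6 was 62.5 RPKM against 66.6 to 67.1 in the others, a gap of 0.877 of the range. The log2 fold change of Rbfox1 was -0.40 without library 11 and that of Rbfox2 0.35 without library 6, and both calls held.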

How the results depend on the processing

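No paired analysis was possible because the column numbers of the 2 genotypes are not the replicate numbers of the titles and share none. The 5 rises among the members passed in all 19 alternatives run. The 3 falls kept their direction in all of them, and the count of members lower was 1 to 3 on leaving out a library in turn and 1 in each of the lower-numbered (5, 6, 1, 2) and higher-numbered (11, 12, 7, 8) libraries alone, where fewer libraries entered. Elavl3 and Ptbp2 passed in none, and Ptbp2 was at 0.03 under quantile normalization, the opposite sign. On leaving out a library, the lower count ran from 1 to 3 in the splicing list, 3 to 8 among hnRNPs and 1 to 3 in the stability list, and the log2 difference of ratios from 0.042 to 0.13 for Elavl4/Elavl2, 0.66 to 0.94 for Rbfox3/Rbfox2, 1.31 to 1.61 for Rbfox3/Rbfox1 and 0.62 to 0.90 for Nova2/Nova1. Pseudocounts of 5 and 0.1 gave 0.43 and 1.04 for Rbfox3/Rbfox2 and 0.96 and 1.75 for Rbfox3/Rbfox1, with adjusted p = 0.0327 by the exact permutation test in each. Ratios were not tested with 4 libraries against 3, where an exact two-sided p cannot go below 0.0571. The 1 hnRNP gene higher under median-of-ratios scaling or quantile normalization is given above; the cause was not tested. Rbfox3, with 255 reads in its lowest library, is the member that depth limits most.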
